A study of Mus musculus with 18 samples.

Results

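Induced beta cells are pancreatic cells that were turned towards an insulin-producing state in living mice by adenovirus injected into the pancreas, and the 6 arrays described here set such cells at 7 months (3 arrays) against such cells at day 60 (3 arrays). They belong to 18 arrays in 6 groups of 3, the others being induced cells at day 10 and day 30, endogenous beta cells and acinar cells. All mice were Rag1-/-, and so lacked T and B cells. The labels say that Cherry-positive induced cells were sorted after islets had been removed and the acinar fraction had been dispersed, but give neither the genes carried by the virus nor the age or number of mice per array. The 7 month arrays and the day 60 arrays were chosen by their titles, and all 8942 of 18118 gene symbols that were detected on at least 3 of the 18 arrays were compared. Values are log2 of background-corrected, quantile-normalised signal intensity, so that 1 unit is a 2-fold difference.

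Beta cells store insulin in dense-core granules and set its release by glucose uptake and metabolism. Islet transcription factors such as Pdx1, Nkx6-1 and Mafa maintain that program, while Ucn3, the islet peptide urocortin 3, is known as a marker of mature mouse beta cells. Acinar cells make and export digestive enzymes, and they surround islets together with stromal cells, vessels and macrophages.

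The marker genes of the label were present at both times. Ins1, an insulin gene, read 14.58, 14.43 and 14.21 at 7 months (replicates 1, 2 and 3) and 14.42, 14.37 and 14.12 at day 60. Ucn3 read 10.22, 10.40 and 10.05 at 7 months and 10.30, 10.38 and 10.03 at day 60. The arrays of the 2 times overlapped in both genes. Ins1 averaged 14.41 at 7 months and 14.30 at day 60, against 4.32 in acinar cells. Its deposited signals of 17114 to 22931 at 7 months overlapped the 21170 to 21780 of endogenous beta cells, whose normalised value is set by rank near the top of the range. Ucn3 averaged 10.22 at 7 months and 10.24 at day 60, against 10.12 in endogenous beta cells and 4.77 in acinar cells, where it was detected on no array. Its order against endogenous beta cells depended on the normalisation, since its deposited signals were 1096 to 1227 at 7 months and 1163 to 1349 at day 60, against 1437 to 1573 in endogenous beta cells. Mafa, a transcription factor that drives insulin genes, read 8.28, 7.96 and 8.08 at 7 months and 8.44, 7.76 and 8.01 at day 60, above the 5.30 ± 0.056 of endogenous beta cells (SD, n = 3). Probe positions were not available, so it cannot be told whether a probe reads a viral copy of a gene, the cell's own or both. Digestive enzyme genes were also near the top of the range: Ela2, an elastase gene, averaged 14.86 ± 0.035 at 7 months and 14.86 ± 0.035 at day 60, against 11.01 ± 0.082 in endogenous beta cells and 14.79 ± 0.072 in acinar cells (SD, n = 3 each). In RNA from sorted bulk cells, transcripts held together in a cell and those of a mixture of cells cannot be told apart, nor can fewer cells of a type from less RNA per cell.

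Same-numbered arrays of the 2 times resembled each other more than arrays of one time did. Over the 8942 genes, the difference between a 7 month array and the day 60 array of the same number had an SD of 0.161 to 0.178 in the 3 pairs, with 1 to 14 genes past 2-fold. Arrays of different number differed by an SD of 0.378 to 0.469 across the 2 times (6 pairs, 202 to 401 genes past 2-fold). Within one time the arrays differed by 0.374 to 0.467 (6 pairs, 194 to 396 genes). The same-numbered pairs lay within the range seen between arrays of one group elsewhere in the series, which was 0.12 to 0.245 (12 pairs, 0 to 48 genes). Across genes, which are not independent replicates, the deviations of same-numbered arrays from their group means correlated at 0.787 to 0.860, while arrays of different number correlated at -0.618 to -0.305. Deviations within a group of 3 sum to 0, which pulls the second set below 0. The labels do not say what same-numbered arrays share, whether mouse, RNA, chip or batch. Each number occurs at both times, so number and time can be fitted apart, but what the numbers stand for cannot be told. The 6 arrays may hold fewer than 6 independent samples. Every result below stands on these arrays, and the p-values measure only the spread between them, which may be technical.

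**Figure D1:**
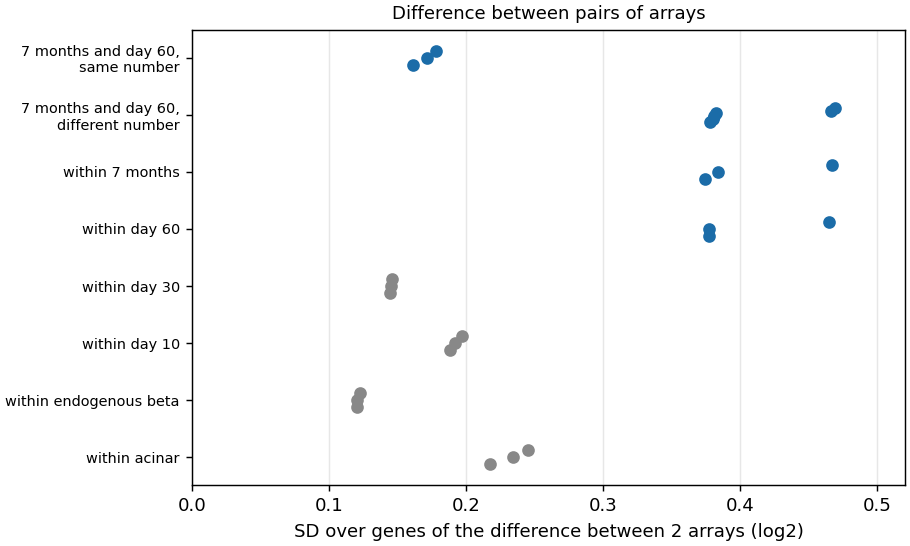
Each point is a pair of arrays, placed on the horizontal axis by the SD over 8942 genes of their log2 difference, and the rows group the pairs by kind, with the late arrays in blue and the other groups in grey. The 3 same-numbered pairs of 7 months and day 60 lie at 0.161 to 0.178, and all pairs of differently numbered late arrays lie at 0.374 or more.

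**Figure D2:**
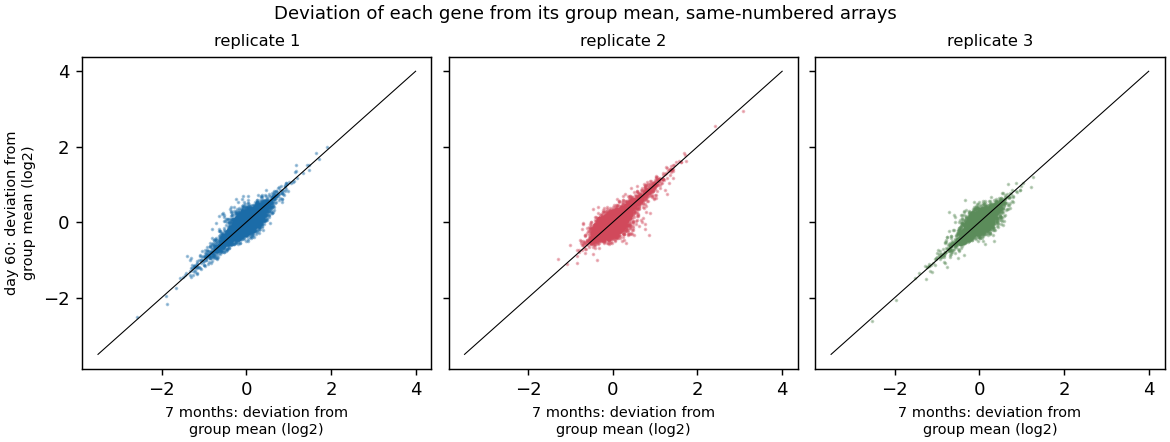
Each panel shows one replicate number, and each point is one of the tested genes, with its deviation from the group mean at 7 months on the horizontal axis and at day 60 on the vertical axis (both log2). The points follow the line of equality in all 3 panels, with correlations across genes of 0.860, 0.843 and 0.787 for replicates 1, 2 and 3.

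Between 7 months and day 60, none of the 8942 genes was called by limma at a Benjamini-Hochberg adjusted p under 0.05 (0%) in the fit of all 18 arrays, in the fit of the 6 late arrays or with the replicate number as a block. At an unadjusted p under 0.05 there were 208 genes in the fit of all 18 arrays, 79 in that of the 6 arrays, 551 in the 6 arrays with the replicate block and 604 in all 18 arrays with the block. The smallest adjusted p in these 4 limma fits was 0.442, 1, 0.711 and 0.123. The differences between the times (7 months minus day 60) spanned -0.80 to 0.71, or at most 1.75-fold, and 6740 genes (75.4%) differed by less than 0.1. The missing calls left room for modest differences. In the fit of all 18 arrays 8841 genes (98.9%) had a 95% interval within 2-fold either way and 8094 (90.5%) within 1.5-fold. That fit pools in the smaller spread of the other groups. In the fit of the 6 late arrays these were 8519 (95.3%) and 7009 (78.4%) genes. With the replicate block in the 6 arrays they were 8927 (99.8%) and 8715 (97.5%). The median SE was 0.112, 0.139 and 0.0618 in these 3 fits. The 3 arrays of one time lay wholly above those of the other in 314 genes (3.51%), 148 higher (1.66%) and 166 lower (1.86%) at 7 months. The difference had one sign in all 3 same-numbered pairs in 2406 genes (26.9%), 1185 higher (13.3%) and 1221 lower (13.7%).

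The genes at the edges of this comparison, named here after their values had been seen, were dim. Recql5, a DNA helicase gene, read 5.83, 5.68 and 5.83 at 7 months and 6.45, 6.25 and 6.29 at day 60, a difference of -0.55 ± 0.11 (SE) with the smallest adjusted p of the 18-array limma fit, 0.442. H2-Tw3, an MHC class I-like gene, had the most negative difference, at 5.48, 4.88 and 5.11 at 7 months against 6.05, 5.92 and 5.91 at day 60. Krt222, a keratin family gene, had the most positive one, at 5.54, 5.83 and 4.81 at 7 months against 4.65, 4.58 and 4.81 at day 60. Of the 17 genes past 0.5 in either direction none had a level over 7. Krt222 was detected on 2 arrays at 7 months and on none at day 60, while H2-Tw3 was detected on 1 array at 7 months and on 3 at day 60.

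Insulin and granule genes, like all 8942 tested genes, were not called between the times. Most of the insulin and granule genes were called for replicate number. Of 25 genes listed for insulin, secretory granules and prohormone processing, 22 were tested, 0 were called and 12 met the definition of stable used here: detected on all 6 arrays, a range of at most 0.5 within each time, and a 95% interval of the difference between the times within 1.5-fold. Across all 8942 genes 4324 (48.4%) met it, and only the 6453 genes detected on all 6 arrays could. An F-test of the replicate number, described below, called 19 of the 22 (86.4%), Ins1 and Ins2 among them. It called 41.6% of all genes and 53.5% of those detected on all 6 arrays. Ucn3 and Mafa were called too. The median difference of the list was -0.02, against -0.00105 for all genes. Ins2, the other insulin gene, read 14.81, 14.87 and 14.58 at 7 months and 14.81, 14.87 and 14.59 at day 60, with the lowest array numbered 3 at both times. Ins1 differed by 0.10 (95% interval -0.09 to 0.30) and was higher at 7 months in 3 of 3 same-numbered pairs. Ucn3 differed by -0.01 (-0.32 to 0.30) and Mafa by 0.03 (-0.24 to 0.31). Chga, a chromogranin of the granule matrix, read 14.06, 13.99 and 13.77 at 7 months and 14.08, 14.06 and 13.75 at day 60. Pcsk2, which cuts prohormones, differed by 0.00 (-0.22 to 0.22). The widest gap in the list was that of Iapp, the islet amyloid peptide released with insulin, at 11.01, 11.45 and 11.39 at 7 months and 11.20, 11.85 and 11.76 at day 60. Iapp was lower at 7 months in 3 of 3 same-numbered pairs, the 2 groups overlapped, and the difference of -0.32 (-0.76 to 0.12) was not called, also not with the replicate block (limma adjusted p = 0.745).

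Glucose sensing and transcription factor genes were not called between the times either, as 0 of all 8942 tested genes were. G6pc2, an islet glucose phosphatase, read 12.71, 12.75 and 12.51 at 7 months and 12.75, 12.79 and 12.48 at day 60. Slc2a2, the glucose transporter of beta cells, read 9.63, 9.84 and 9.24 at 7 months and 9.67, 9.69 and 9.28 at day 60. Both had their lowest value on replicate 3 at either time. Of 13 tested islet transcription factors 6 were stable, against 48.4% of all genes, and the differences ran from -0.11 to 0.14. Rfx6, an endocrine cell factor and the brightest of them, read 12.06, 12.12 and 11.89 at 7 months and 12.08, 12.18 and 11.93 at day 60. Pdx1, a factor of pancreas and beta cells, read 7.47, 7.70 and 7.86 at 7 months and 7.65, 7.81 and 7.70 at day 60, and was not called for replicate number. Neurog3, the factor of endocrine progenitors, differed by array: it read 8.01, 6.97 and 6.26 at 7 months and 7.98, 6.69 and 6.16 at day 60. Replicate 1 was the highest and replicate 3 the lowest at both times, and it was higher at 7 months in 3 of 3 same-numbered pairs. The difference between the times of 0.14 (95% interval -0.69 to 0.97) was not called, also not with the replicate block (limma adjusted p = 0.794).

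**Figure D3:**
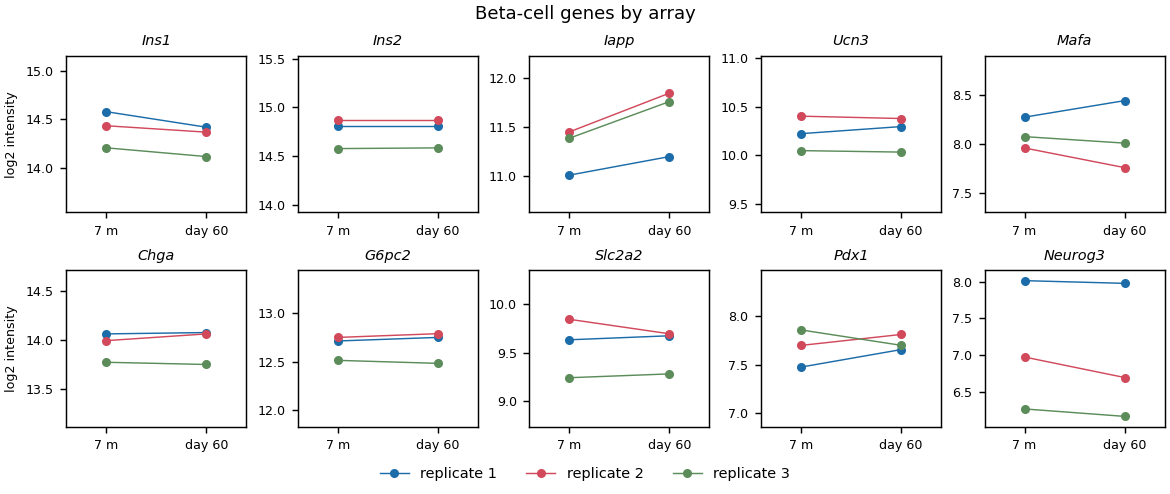
Log2 intensity of 10 beta-cell genes on the 3 arrays at 7 months (left of each panel) and the 3 at day 60 (right), with lines joining arrays of the same number and an axis of its own for each gene. Insulin genes differ by under 0.4 between arrays of one time, and Neurog3 ranges from 6.16 to 8.01 with the same order of arrays at both times.

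A set of 27 genes stood out by how their values were written. In the deposited 7 month columns 80 values of these genes were written with as many as 10 digits, where every other value on the 18 arrays has 7 or fewer. The 27 include Ins1, Ins2, Ucn3, Iapp, Chga, G6pc2, Slc2a2, Rfx6, Neurod1 and Nkx6-1, and do not include Mafa or Pdx1. Their differences ran from -0.32 for Iapp to 0.14 for Neurod1, a factor of endocrine cells, with a median of -0.0147. In 2592 other genes at least as bright as the dimmest of them, the median was 8e-04. Of the 27 genes 19 (70.4%) were below 0, against 49.1% of those others, and 6 (22.2%) against 12.8% were lower at 7 months in all 3 pairs. What gave these values their extra digits was not tested, and leaving the 27 genes out, an alternative added after the data were seen, left 0 genes called.

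The genes that differed between arrays of one time did so alike at both times. A range over 2-fold within the 3 arrays was found in 576 of 8103 genes detected at 7 months (7.11%) and in 558 of 8183 at day 60 (6.82%), against 57, 46, 0 and 2 genes in acinar cells, day 10, day 30 and endogenous beta cells. These counts include 438 genes in common, which is 76.0% of the 7 month genes and 78.5% of the day 60 genes. Without replicate 1, 2 or 3 the counts were 224, 219 and 416 at 7 months and 209, 225 and 405 at day 60. A range over fewer arrays is smaller by construction. Among the 8942 tested genes 422 (4.72%) ranged over 2-fold within both times. The same number was highest at both times in 416 of these genes and lowest in 398. Of those 416 genes, 296 were highest on replicate 2, 83 on replicate 1 and 37 on replicate 3. The largest difference between the times among the 422 was 0.31. An F-test of the replicate number in the fit of the 6 arrays with the block, added after this pattern had been seen and therefore no independent evidence of it, called 3721 of all genes (41.6%) and 421 of the 422 at an adjusted p under 0.05 (limma). Among the 6453 genes detected on all 6 late arrays it called 3454 (53.5%).

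Genes for secreted inflammatory proteins were among those with the widest ranges. Saa3, an acute-phase serum amyloid, read 5.99, 11.62 and 8.07 at 7 months and 6.07, 11.52 and 8.12 at day 60. Lcn2, the iron-binding lipocalin 2, read 10.52, 12.83 and 7.87 at 7 months and 10.43, 12.94 and 7.77 at day 60. Cxcl1, a chemokine that attracts neutrophils, read 10.21, 12.13 and 9.24 at 7 months and 10.07, 12.08 and 9.33 at day 60. Replicate 2 was the highest in all 3 genes at both times, whereas the lowest array was replicate 1 for Saa3 and replicate 3 for Lcn2 and Cxcl1. The deposited signals of Saa3 were 104, 2721 and 330 at 7 months and 121, 2783 and 362 at day 60. Saa3 was detected on no array of the other 4 groups, with means of 4.71 to 5.43 there. All 3 genes were called for replicate number (limma adjusted p = 0.000271 to 0.000374) and none for time, with differences of -0.01, 0.03 and 0.03. They were picked by their wide ranges on these arrays, so the p-values for replicate number are no independent evidence that they vary.

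C/EBP factors and NF-kappa B are known activators of acute-phase and chemokine genes. The 250 bases before the start of these 3 genes are shown from RefSeq (build GRCm38.p6) because the genes had among the widest ranges, with Saa3 lowest on another array than Lcn2 and Cxcl1. Width alone did not select them, since the chemokine gene Ccl4, not shown, ranged over 3.32 at 7 months and 3.49 at day 60. Cxcl1 ranged over 2.89 and 2.75. The windows are chr7:46715677-46715926 on the minus strand for Saa3, chr2:32387740-32387989 on the minus strand for Lcn2 and chr5:90890995-90891244 on the plus strand for Cxcl1, each read 5′ to 3′ on the gene's strand. Capitals mark matches on either strand to the C/EBP core TTNNGNAA in Saa3 and Lcn2, and to the kappa B consensus in Cxcl1.
Saa3: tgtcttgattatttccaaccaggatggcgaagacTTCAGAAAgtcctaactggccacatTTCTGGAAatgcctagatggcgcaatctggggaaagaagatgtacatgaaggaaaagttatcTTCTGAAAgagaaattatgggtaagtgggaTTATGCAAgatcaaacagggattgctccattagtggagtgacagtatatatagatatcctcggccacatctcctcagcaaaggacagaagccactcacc
Lcn2: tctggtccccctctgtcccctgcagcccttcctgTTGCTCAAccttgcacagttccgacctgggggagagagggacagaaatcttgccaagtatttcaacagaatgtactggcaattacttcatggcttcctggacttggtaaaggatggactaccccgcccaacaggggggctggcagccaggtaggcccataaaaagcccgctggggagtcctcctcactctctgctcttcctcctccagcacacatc
Cxcl1: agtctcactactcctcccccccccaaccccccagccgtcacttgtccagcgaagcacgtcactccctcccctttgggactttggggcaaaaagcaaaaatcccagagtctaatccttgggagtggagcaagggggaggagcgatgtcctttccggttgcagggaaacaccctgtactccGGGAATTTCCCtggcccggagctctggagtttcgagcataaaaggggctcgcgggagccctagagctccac
The C/EBP core was matched 4 times before Saa3, 1 time before Lcn2 and 0 times before Cxcl1, and 36.8% of 32851 such windows over all genes hold it. The kappa B consensus was matched 2 times before Cxcl1, by overlapping matches, 0 times before Saa3 and Lcn2, and in 3.9% of all windows. A match describes letters in this window and shows no binding.

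Other genes of chemokines and phagocytes also varied. Ccl4, a chemokine for monocytes and T cells, read 10.34, 11.10 and 7.78 at 7 months and 10.35, 11.11 and 7.62 at day 60, lowest on replicate 3. Fcna, a ficolin lectin of macrophages, read 6.04, 9.28 and 8.52 at 7 months and 6.05, 9.40 and 8.56 at day 60, lowest on replicate 1. Vsig4, a complement receptor of tissue macrophages, read 5.27, 8.36 and 7.18 at 7 months and 5.25, 8.50 and 7.20 at day 60, and was not detected on replicate 1 at either time. Fpr2, a receptor of phagocytes, S100a8, a calgranulin of neutrophils, and Ccl9, a chemokine, each ranged over 2.6 or more within both times and were highest on replicate 2. All 21 tested macrophage and myeloid markers were called for replicate number, against 41.6% of all genes. Of the 21 markers 10 ranged over 2-fold within both times, against 4.72% of all genes, and 2 were detected on none of the 6 arrays. The list means were 6.72, 7.81 and 7.34 at 7 months and 6.70, 7.84 and 7.34 at day 60. The median difference between the times was -0.0039. The list mean spanned 7.89 to 7.91 at day 10 and 6.53 to 6.61 at day 30, 6.64 to 6.73 on acinar arrays and 4.91 to 4.93 on endogenous beta cell arrays. Lyz1, a lysozyme gene and the brightest of them, read 10.39, 12.04 and 11.43 at 7 months and 10.41, 12.06 and 11.34 at day 60. All 6 tested genes of MHC class II presentation were called for replicate number too. Cd74, the invariant chain, read 10.92, 11.78 and 11.12 at 7 months and 10.85, 11.81 and 11.01 at day 60.

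Every tested mesenchymal and stellate marker varied between arrays, and in the same order of arrays at both times for the list mean. All 18 ranged over 2-fold within both times and all 18 were called for replicate number, against 41.6% of all genes. The list means were 7.33, 8.87 and 7.85 at 7 months and 7.26, 8.88 and 7.84 at day 60, against 7.88 to 7.91 on acinar arrays and 4.53 to 4.54 on endogenous beta cell arrays. Dcn, the matrix proteoglycan decorin, read 11.28, 12.52 and 11.97 at 7 months and 11.35, 12.54 and 11.96 at day 60. Timp1, an inhibitor of matrix proteases, read 6.40, 9.52 and 7.60 at 7 months and 6.45, 9.68 and 7.42 at day 60. Both were lowest on replicate 1 and highest on replicate 2. Of 10 tested endothelial markers 7 were called for replicate number, among them Plvap, a protein of vessel fenestrae, at 10.33, 10.74 and 10.32 at 7 months and 10.25, 10.84 and 10.35 at day 60.

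Blood and sex-linked genes set replicate 1 apart at both times. Hba-a1, an alpha globin gene, read 12.93, 9.95 and 10.20 at 7 months and 12.96, 9.87 and 10.11 at day 60. Hbb-b1, a beta globin gene, read 7.86, 4.91 and 5.86 at 7 months and 8.10, 5.28 and 5.38 at day 60. Globin genes have near-identical copies, so that their probes may not separate them. Eif2s3y, a Y chromosome gene, read 5.07, 7.94 and 7.80 at 7 months and 4.85, 8.15 and 8.05 at day 60, and was not detected on replicate 1 at either time. Xist, the RNA that silences an X chromosome in female cells and a gene named here after its values were seen, read 7.12, 4.57 and 4.53 at 7 months and 7.11, 4.71 and 4.51 at day 60. Xist was detected on replicate 1 alone at both times. At day 30, by comparison, Eif2s3y and Xist were detected on all 3 arrays, and Xist was detected on no array of day 10, endogenous beta cells or acinar cells.

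**Figure D4:**
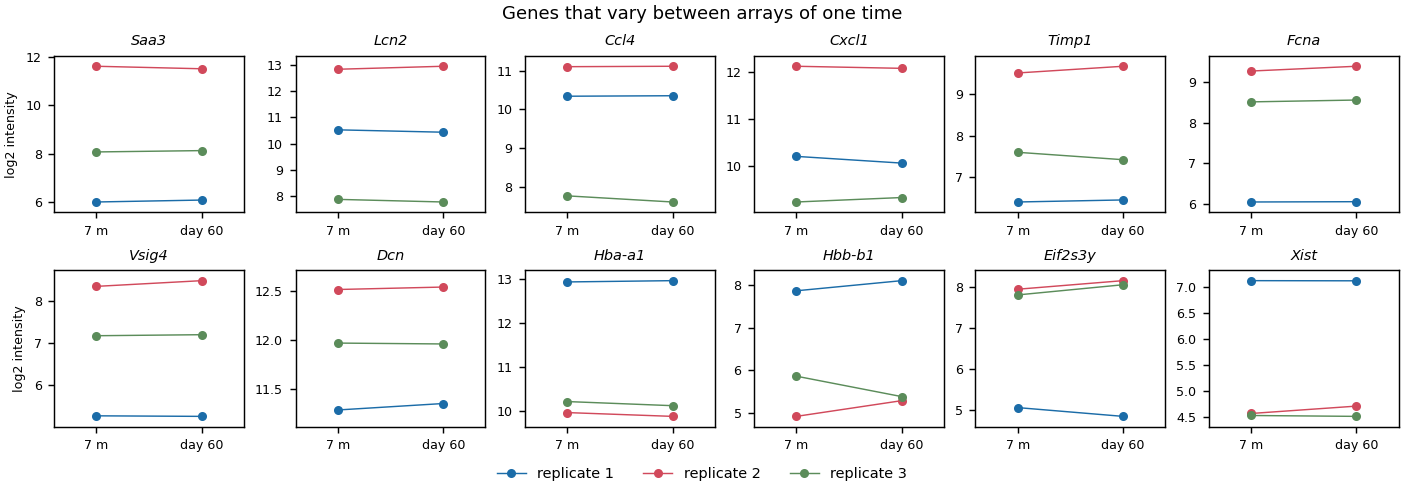
Log2 intensity of 12 genes with wide ranges on the 3 arrays at 7 months (left of each panel) and the 3 at day 60 (right), with lines joining arrays of the same number and an axis of its own for each gene. The lines are nearly flat, while Saa3 spans 5.99 to 11.62 within 7 months, and replicate 1 is highest for Hba-a1, Hbb-b1 and Xist and lowest for Eif2s3y.

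Peptide hormone genes of other endocrine cells, named here after their values were seen apart from Ghrl, also differed by array. Sct, the gut hormone secretin, read 11.51, 9.36 and 9.20 at 7 months and 11.46, 9.23 and 9.13 at day 60. Gcg, the glucagon gene of alpha cells, read 13.46, 13.01 and 11.84 at 7 months and 13.55, 13.12 and 11.88 at day 60, and Ppy, the pancreatic polypeptide gene, was also highest on replicate 1 and lowest on replicate 3 at both times. Gip, the incretin of the upper gut, was highest on replicate 3 and lowest on replicate 2, at 10.64, 10.34 and 12.04 at 7 months and 10.82, 10.23 and 12.08 at day 60. Ghrl, the ghrelin gene, met the definition of stable and was still called for replicate number (limma adjusted p = 0.0451), at 13.83, 13.95 and 13.68 at 7 months and 13.78, 13.97 and 13.69 at day 60. Of the 9 tested markers of other islet cells 7 were called for replicate number, and so were 8 of 9 gut peptide genes, against 41.6% of all genes (the lists share members).

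Digestive enzymes and housekeeping complexes were among the steadier groups. Of 22 tested digestive enzyme genes 19 were stable, against 48.4% of all genes, and 5 (22.7%) were called for replicate number. Still, 2 of the 22 ranged over 2-fold within both times, against 4.72% of all genes. The list means of the enzymes were 13.70, 13.85 and 13.74 at 7 months and 13.71, 13.85 and 13.75 at day 60. Of 15 tested acinar secretory genes 10 were stable, where only the 6453 genes detected on all 6 arrays could be. Of these 15 genes 7 (46.7%) were called for replicate number, against 41.6% of all genes. Within both times 2 of them ranged over 2-fold, against 4.72% of all genes. By these counts of replicate number and range the acinar secretory list was not steadier than all genes. Try5, a trypsinogen gene, read 14.70, 14.75 and 14.75 at 7 months and 14.72, 14.75 and 14.75 at day 60. Ela2, Gp2 (a zymogen granule membrane protein), Reg1 (a secreted lectin of acinar cells), Cela3b (an elastase), Try10 (a trypsinogen), Sycn (syncollin of zymogen granules) and Zg16 (a granule lectin) were, with Ins2, Try5, Ubb (ubiquitin), Mt1 (a metallothionein) and Rplp1 (a ribosomal protein), the 12 brightest stable genes. Ela2 had deposited signals of 28967, 28807 and 30374 at 7 months and 29002, 28819 and 28976 at day 60, where the highest signals on these arrays were 28967 to 30374 at 7 months and 28925 to 29002 at day 60. Quantile normalisation gives genes at this end values by rank, and trypsinogen genes are near-identical copies, which limits what their steadiness shows. Of 56 tested ribosomal protein genes 51 were stable and 6 (10.7%) were called for replicate number. Of 66 respiratory chain subunits 54 were stable and 13 (19.7%) were called for it, against 41.6% of all genes.

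**Figure D5:**
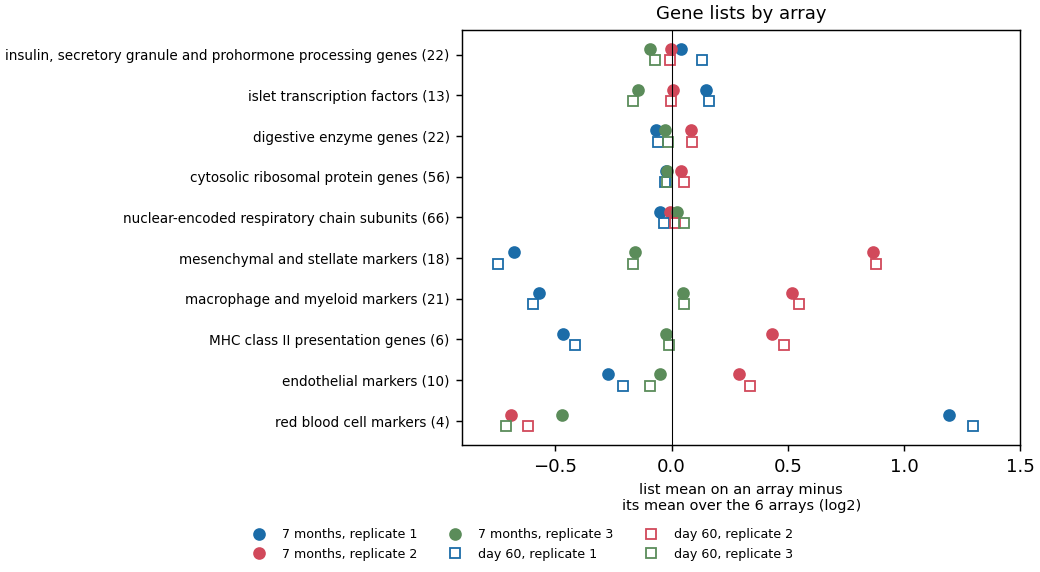
Each row is a gene list with its number of tested genes, and each point is the list's mean log2 intensity on one array minus its mean over the 6 arrays, with 7 months as filled circles above day 60 as open squares and a colour for each replicate number. Mesenchymal, macrophage and MHC class II lists run from replicate 1 through replicate 3 to replicate 2, the red blood cell list is highest on replicate 1, and the enzyme, ribosomal and respiratory chain lists lie near 0.

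Stress, arrest and immune response genes were not called for time, as 0 of all 8942 tested genes (0%) were. Over the 35 lists with tested members the median difference between the times ran from -0.13 to 0.04, and 0 of the 507 tested symbols were called by limma. Both ends came from lists with 1 tested gene, T and B cell markers and Schwann cell markers. Among lists with more tested genes the lowest median was -0.04, for cholesterol synthesis and uptake genes. Among 13 heat shock protein genes the median was 0.01, and Dnajb1, a co-chaperone, read 13.81, 13.58 and 13.66 at 7 months and 13.83, 13.58 and 13.65 at day 60. Among 16 genes of p53 targets, arrest and senescence the median was 0.01, and Cdkn1a, a cell cycle inhibitor, read 10.74, 11.08 and 10.99 at 7 months and 10.80, 11.07 and 10.91 at day 60. Among 22 interferon-stimulated genes the median was -0.02, and Ifi27, their brightest, read 12.41, 12.81 and 12.40 at 7 months and 12.38, 12.77 and 12.37 at day 60. The unfolded protein response list, with Herpud1 of the endoplasmic reticulum as its brightest gene at 13.69, 13.55 and 13.24 at 7 months and 13.68, 13.66 and 13.25 at day 60, had a median of -0.01. Among 12 tested cell cycle genes the median was -0.03. For replicate number, 3 of the 12 cell cycle genes were called (25%), against 8 of 13 heat shock (61.5%) and 11 of 16 arrest genes (68.8%). So were 15 of 22 interferon-stimulated (68.2%) and 11 of 17 unfolded protein response genes (64.7%). The share was 41.6% over all genes and 53.5% over those detected on all 6 late arrays. Of the 12 cell cycle genes 6 were detected on none of the 6 late arrays, which limits the comparison of that list with the others. That number was 0 in the heat shock, arrest and unfolded protein response lists and 1 in the interferon list. Cd3e, the single tested T and B cell marker, was near background at 5.42, 5.41 and 5.11 at 7 months and 5.41, 5.42 and 5.50 at day 60, and no natural killer marker was tested.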

How the data were processed

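Gene expression was read on 18 Illumina MouseRef-8 v2.0 arrays. Per the file headers, the authors deposited 1 signal intensity per array for 18118 symbols, with no background subtraction visible in the values. Beside it stood the deposited detection p-value, which lay mostly on multiples of 1 over 798. The authors also deposited log10 values in the series matrix, which matched log10 of these intensities with gaps of at most 5.5e-10. How probes were summed up per symbol, and with which software, is not given in the sources used here. Groups and replicate numbers came from the sample titles.

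Signals were corrected by normexp in limma 3.58.1 (R 4.3.3), with negative controls inferred from detection p-values on the grid of 798 steps and an offset of 16, then quantile-normalised and put on a log2 scale. The 8942 genes whose detection p-value fell below 0.01 on 3 or more of the 18 arrays were tested. Median signals were 56.8 to 81.6, and 7208 to 7475 genes were detected at 7 months, against 7341 to 7496 at day 60. The number of arrays limits the precision. Symbols were updated through RefSeq (GRCm38.p6), which changed 4902 and found 12036 as written. The scripts were tested on simulated data.

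All 18 arrays entered a limma model with 1 mean per group (12 residual degrees of freedom, so the spread is pooled over groups whose spreads differ: the median SD of a gene was 0.172 at 7 months and 0.166 at day 60, against 0.0587 to 0.0916 in the other 4 groups). The threshold was a Benjamini-Hochberg adjusted p of 0.05. The deviations of same-numbered late arrays correlated at 0.787 to 0.860 across genes, above the minimum of 0.1 set for every pair, so the numbers were taken to pair the arrays. That pairing comes from the values and not from the labels. Alternatives were the 6 arrays alone, replicate blocks, scaling, background, offset, filters, moderation, array weights and leaving out arrays. Named genes were Ins1, Ucn3, Mafa, the brightest gene of each list, the 10 genes with the largest range within each time and the 12 brightest stable genes. The rule also covered called genes, of which there were none, and genes named outside it are marked, or stand as further examples of a list, chosen after their values were seen. Members and the 36 lists were chosen with earlier results of these data known.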

Additional observations from a re-analysis of the deposited data

How the results depend on the processing

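The count of genes called between 7 months and day 60 was 0 in the limma fit of all 18 arrays and in every alternative that was run, the replicate block included, and it was 0 in each direction. The count of stable genes stayed between 4094 and 5448, against 4324. The counts of genes with a range over 2-fold depended on the treatment of low signals. At 7 months and day 60 they were 191 and 198 when limma inferred the controls from all detection p-values, 289 and 301 with no background correction, 302 and 321 with an offset of 50, and 289 and 277 in the series matrix, against 576 and 558. Leaving out an array or a replicate number gave 218 to 578 genes at 7 months and 208 to 561 at day 60. The smaller ranges with a larger offset follow from its construction, and other causes were not tested. Median scaling moved the median difference of all genes to -0.0844 and the series matrix to -0.113, against -0.00105, while no call was gained, lost or reversed. Under median scaling the differences of the bright genes Ins1, Ela2, Clu and Try5 moved up, against that median. The F-test of replicate number, added after the data were seen, called 3817 genes with median scaling, 4328 with no background correction, 4499 in the series matrix, 4311 with an offset of 50 and 3454 of 6453 genes detected on all 6 arrays, against 3721. With 3 arrays a time, and same-numbered arrays that may not be independent, differences under about 1.5-fold could not be told from array spread in part of the genes, and dim genes rest on signals close to the negative controls.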
